A study of Rattus norvegicus with 10 samples.

Results

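Acat1 and Bdh1 are genes of ketone body metabolism, described here in the livers of 5 rats given RG3487 and 5 rats given vehicle. They were taken as every probe set that the platform annotation gives to exactly 1 gene symbol, that symbol being Acat1 or Bdh1. They are 2 of 9378 genes with such a probe set, with 2 probe sets each, or 4 of 15859 probe sets that are not array controls. The livers came from 10 rats of the CRL:WI (Han) strain, 6 to 8 weeks old (sex not stated). The RG3487 group received 180 mg/kg and the vehicle group received deionized water, both by gavage in 5 ml/kg. Both groups were sampled from the left lateral lobe under pentobarbital anaesthesia 24 h after the dose according to the sample labels, whereas the series text gives 2 h. RG3487 was tested at 1 dose and 1 time, and the rats were housed in groups of 5, so a cage effect and a drug effect cannot be told apart if cages followed treatment.

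Ketone bodies are made in liver mitochondria from the acetyl-CoA that fatty acid oxidation releases, mainly in fasting, and are carried by the blood to other organs as fuel. Acat1 encodes the mitochondrial acetoacetyl-CoA thiolase, which joins acetyl-CoA units at the start of ketone synthesis, splits acetoacetyl-CoA in organs that burn ketones, and performs the last cleavage in the breakdown of isoleucine. Bdh1 encodes the inner membrane dehydrogenase that interconverts acetoacetate and beta-hydroxybutyrate, the last step of synthesis in liver and the first step of use elsewhere.

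The promoter windows of both genes are shown because the genes moved the same way in the comparison below. Each window runs from 250 bases before to 50 bases after a transcript start listed by RefSeq on the rat build GRCr8. That of Acat1 lies at chr8:62904993-62905292 on the minus strand, and that of Bdh1 at chr11:82842587-82842886, also on the minus strand. RefSeq lists 6 transcripts for Bdh1, and this start lies 5497 bases inside the outer end of the gene, so it represents 1 of several. Capitals mark CCAAT and GGGCGG, read on either strand.
Acat1: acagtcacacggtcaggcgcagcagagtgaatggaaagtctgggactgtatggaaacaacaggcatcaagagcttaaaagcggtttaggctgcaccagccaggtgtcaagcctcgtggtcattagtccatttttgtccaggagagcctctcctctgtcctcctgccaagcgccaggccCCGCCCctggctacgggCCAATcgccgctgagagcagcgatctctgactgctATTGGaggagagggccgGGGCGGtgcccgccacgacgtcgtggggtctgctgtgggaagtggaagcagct
Bdh1: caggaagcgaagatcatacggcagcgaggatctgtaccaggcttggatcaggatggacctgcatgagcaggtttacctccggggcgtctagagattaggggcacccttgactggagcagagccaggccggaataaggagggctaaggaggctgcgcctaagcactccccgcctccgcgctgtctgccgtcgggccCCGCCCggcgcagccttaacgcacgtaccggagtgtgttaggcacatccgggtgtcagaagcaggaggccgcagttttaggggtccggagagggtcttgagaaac
The Acat1 window held CCAAT at 2 places and GGGCGG at 2 places, and the Bdh1 window held GGGCGG at 1 place and no CCAAT. Of 33469 rat promoter windows of this length, 37.5% held CCAAT and 33.1% held GGGCGG. Neither window held AGGTCA, which 16.2% of windows held. CACGTG (6.42% of windows) and TATAAA (14.2%) were absent from both windows too. These are matches of letters only.

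The question of the comparison was whether RG3487 changed the liver transcripts of Acat1 and Bdh1 relative to vehicle. Acat1 fell on both of its probe sets, with changes of -28.1% and -27.6%, and the groups did not overlap on either. Bdh1 fell on 1 of its 2 probe sets, with a change of -16.6%, again with no overlap, while its other probe set changed by -14.0% and did not pass the test. Values are MAS5 signals, a linear brightness in arbitrary units. Changes are differences of log2(signal + 16) tested with limma, and the threshold was an adjusted p under 0.05 (Benjamini-Hochberg, over all 11894 probe sets tested). Thus 3 of the 4 probe sets were called lower, against 7.16% of all those tested that were called lower and 20.5% that were called higher. These 4 are 2 readings each of 2 genes, so they do not count as 4 separate results. On 3 of the 4 every RG3487 animal lay below every vehicle animal, which held for 4.48% of all probe sets tested. In tissue measured as a whole, fewer cells of a type and less RNA per cell cannot be told apart.

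On the Acat1 probe set 1367763_at the signals were 1924, 2053, 2178, 1993 and 2142 in RG3487 animals 1 to 5, against 2696, 2994, 3172, 3023 and 2493 in vehicle animals 1 to 5. The highest RG3487 liver stayed below the lowest vehicle liver, vehicle animal 5, and the vehicle livers were spread more widely. The means were 2058 ± 104 in RG3487 livers and 2876 ± 275 in vehicle livers (SD, n = 5 each), a log2 change of -0.48 ± 0.07 (SE; 95% confidence interval -0.62 to -0.33; limma adjusted p = 0.000555). The exact two-sided permutation test over the 252 regroupings of the animals gave p = 0.00794, the smallest it can give.

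The second Acat1 probe set, 1383416_at, was dimmer and gave 231, 224, 260, 250 and 288 in RG3487 animals 1 to 5, against 330, 351, 400, 377 and 305 in vehicle animals 1 to 5. The groups were again separate, with RG3487 animal 5 and vehicle animal 5 nearest to each other. The means were 251 ± 25 in RG3487 livers and 353 ± 37 in vehicle livers (SD, n = 5 each). The log2 change was -0.47 ± 0.09 (SE; interval -0.66 to -0.28; limma adjusted p = 0.00249; exact permutation p = 0.00794), almost the value of the brighter probe set.

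On the brighter Bdh1 probe set, 1368387_at, the signals were 1091, 1296, 1140, 1259 and 1130 in RG3487 animals 1 to 5, against 1365, 1465, 1534, 1321 and 1421 in vehicle animals 1 to 5. The groups did not overlap, but RG3487 animal 2, at 1296, came close to vehicle animal 4, at 1321. The means were 1183 ± 89 in RG3487 livers and 1421 ± 83 in vehicle livers (SD, n = 5 each), a log2 change of -0.26 ± 0.06 (SE; interval -0.40 to -0.12; limma adjusted p = 0.0099; exact permutation p = 0.00794).

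On the other Bdh1 probe set, 1374765_at, the signals were 633, 819, 638, 768 and 670 in RG3487 animals 1 to 5, against 788, 818, 965, 724 and 816 in vehicle animals 1 to 5. Here the groups overlapped: RG3487 animals 2 and 4 lay within the vehicle range and 3 RG3487 animals below it. The means were 706 ± 83 in RG3487 livers and 822 ± 88 in vehicle livers (SD, n = 5 each). The log2 change of -0.22 ± 0.09 (SE; interval -0.41 to -0.02) did not pass (limma adjusted p = 0.0922; exact permutation p = 0.0714). It passed with quantile normalization (adjusted p = 0.0408), with arrays centred on their median (0.0331) and without RG3487 animal 2 (0.0467; range over the alternatives 0.0331 to 0.839).

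**Figure D1:**
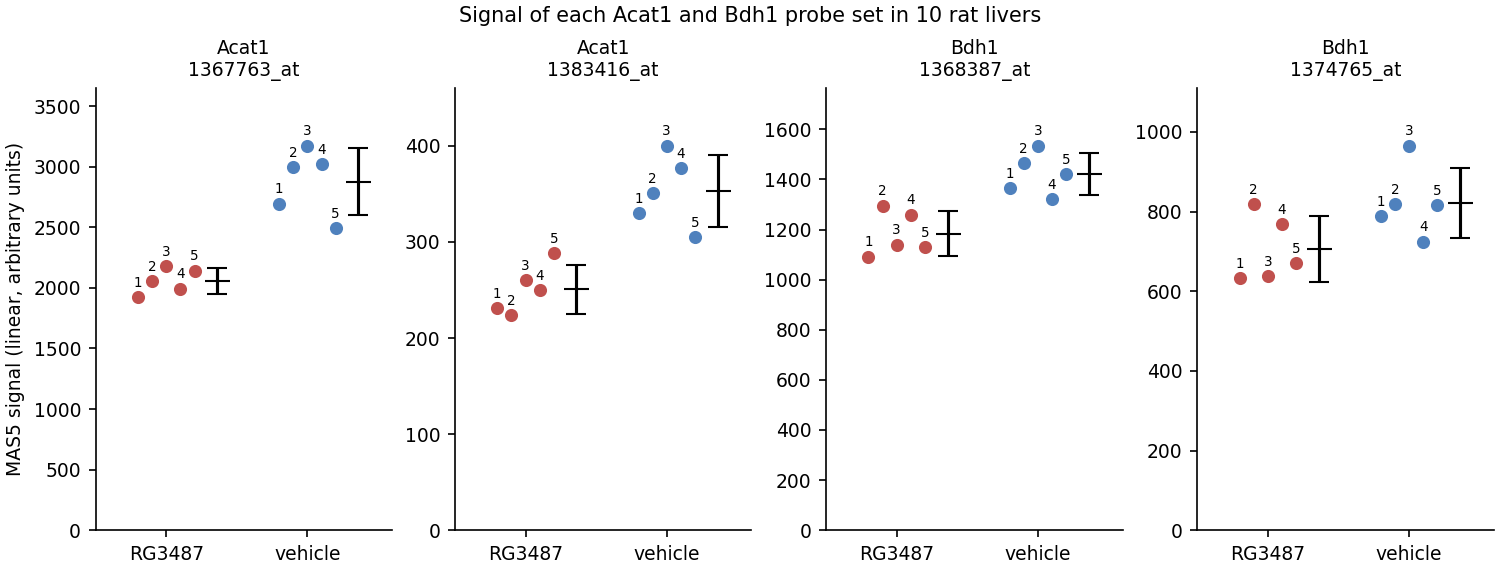
MAS5 signal (linear, arbitrary units) of the 4 probe sets in each liver, RG3487 left and vehicle right, with the animal's number in its group. Bars beside the points give the mean and SD (n = 5); both Acat1 panels and the first Bdh1 panel show separate groups, and the last panel shows overlap.

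How the arrays are scaled bears on these sizes. As deposited, the mean signal of the arrays was held between 330 and 331.8, and the median log2 change of the 7727 genes tested was 0.09, so relative to that median the changes were -0.57 and -0.56 for the Acat1 probe sets and -0.36 and -0.31 for those of Bdh1. The hybridization controls (BioB, BioC, BioD and Cre) are foreign transcripts added at the hybridization step and not to the liver RNA. They were lower in the RG3487 group on 18 of 18 probe sets, by a mean of -0.20 on the log2 scale. With arrays scaled to them, both Acat1 probe sets still passed as lower (log2 change -0.28 each, limma adjusted p = 0.00725 and 0.0226), whereas Bdh1 changed by -0.0695 on 1368387_at (adjusted p = 0.438, range over the alternatives 0.00322 to 0.438) and by -0.026 on 1374765_at (adjusted p = 0.839). That scaling assumes equal addition to each array, for which no source was at hand, and it moved the median of all genes to 0.27. Relative to the median, the 4 values under it were -0.55, -0.55, -0.34 and -0.30.

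**Figure D2:**
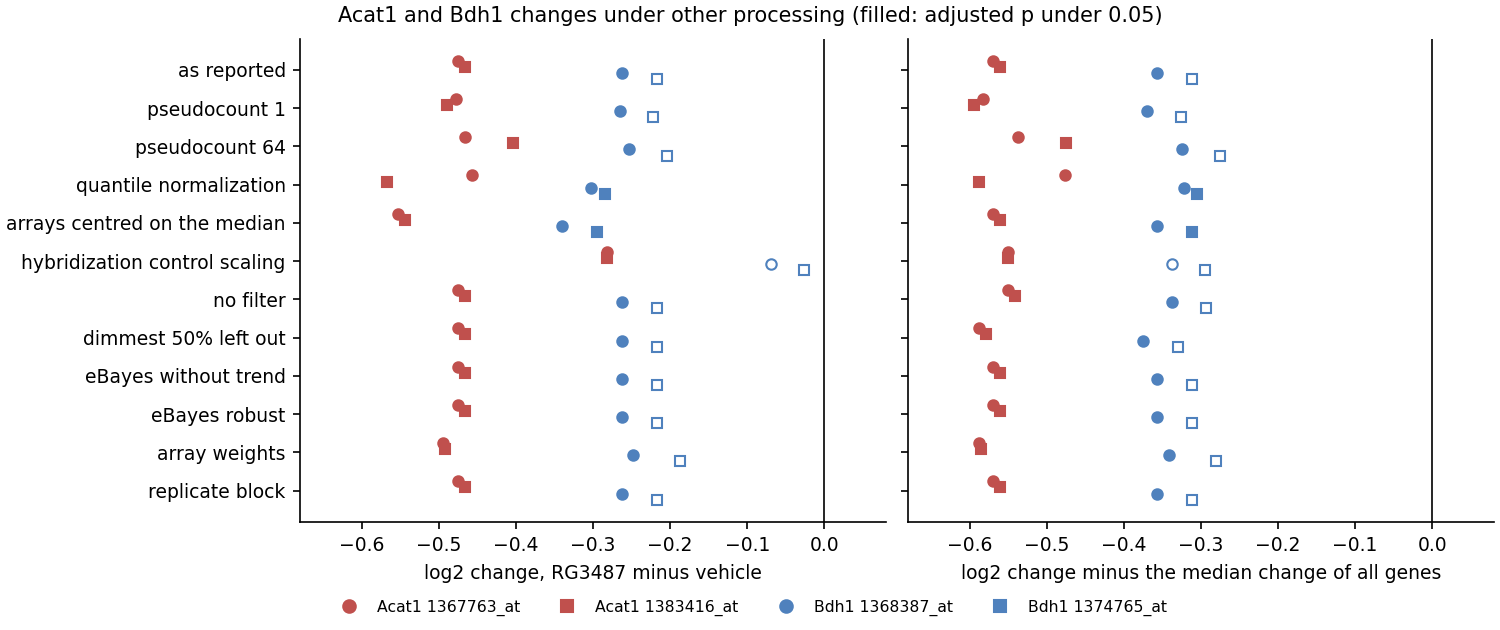
Log2 change, RG3487 minus vehicle, of each Acat1 and Bdh1 probe set under each way of processing (left), and the same value minus the median change of all genes (right). Filled symbols have an adjusted p under 0.05 and open ones do not; the Bdh1 symbols approach 0 on the left under hybridization control scaling, while on the right all lie between -0.594 and -0.275.

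Brightness also moved with the calls. Among the brightest 10% of probe sets, which held 1367763_at of Acat1 and 1368387_at of Bdh1, 23% were called lower and 24.6% higher. In the next such band, which held the second Bdh1 probe set, 10% were lower, and in the band after that, which held the second Acat1 probe set, 7.48% were. The part of brightness in the changes of Acat1 and Bdh1 was not tested, nor was its part in the list counts below.

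Acat1 changed more than Bdh1 in the values as deposited, by a difference close to the threshold of its test. Per animal, the mean log2 value of the Bdh1 probe sets minus that of the Acat1 probe sets, in which a scaling of the whole array largely cancels, was 0.29, 0.57, 0.16, 0.45 and 0.13 in RG3487 animals 1 to 5, against 0.12, 0.08, 0.10, -0.14 and 0.28 in vehicle animals 1 to 5. The ranges overlapped, with vehicle animal 5 inside the RG3487 range. The group difference was 0.23 (exact two-sided permutation p = 0.0476, n = 5 each). It missed 0.05 with quantile normalization (p = 0.0794), with a pseudocount of 64 (p = 0.0635) and without any of RG3487 animals 1, 2 or 4 or vehicle animals 1, 2, 3 or 4 (exact p = 0.103 to 0.135), where the difference was 0.17 to 0.24.

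Among animals of the same group, the 2 probe sets of each gene varied together, and the correlations between the genes were low. With 10 animals, low values do not show that the genes vary independently. Taken as deviations from the group mean over the 10 animals, the log2 values of the Bdh1 probe sets had a Pearson r of 0.96 (Spearman rho 0.94) and those of the Acat1 probe sets an r of 0.84 (rho 0.76). Between the brighter probe sets of Acat1 and Bdh1 r was 0.17 (rho 0.21). RG3487 animal 2 had the highest Bdh1 of its group on both probe sets, and vehicle animal 3 had the highest values of the vehicle group on all 4. These correlations are descriptions over 10 arrays, and probe sets of an array share its scaling.

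By the same measure, the genes whose deviations were most like those of Acat1 were Col5a1 (r = 0.94), Hemk1 (0.89), Cbx1 (0.88), Acp5 (0.88) and Dis3l (0.87), and the most opposite were F11r (-0.91), Fbxo6 (-0.90) and Litaf (-0.90). For Bdh1 the most alike were Tpcn1 (0.96), Traf3 (0.94), Apeg3 (0.92), Gm2a (0.90) and Rtn4rl1 (0.88), and the most opposite were Omd (-0.96), Spryd7 (-0.94) and Canx (-0.93). Without the 2 animals farthest from the median, r fell to 0.62 for Dis3l and 0.75 for Cbx1, was 0.81 to 0.90 for the other genes most like Acat1 and 0.92 to 0.97 for those most like Bdh1, and was -0.79 to -0.92 for the opposite genes. These are the extremes of 7727 genes over 10 animals. None of them is on the pathway lists below. Of the genes most like Acat1, Acp5 alone was called lower (log2 change -0.35 ± 0.10 SE, limma adjusted p = 0.0223), a call lost without RG3487 animal 1 (adjusted p = 0.0505) or vehicle animal 2 (0.0511) and with hybridization control scaling (0.177; range 0.0082 to 0.177). Of the opposite genes, F11r and Fbxo6 were called higher (log2 change 0.34 ± 0.06 and 0.42 ± 0.08 SE, limma adjusted p = 0.00172 and 0.00375). Over all genes tested 7.4% were called lower and 22.3% higher. The likeness was taken from deviations within groups and not from the changes between groups.

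Of 13 other genes of ketone body synthesis, use and transport, 6 had a probe set of their own and 4 were bright enough to test. Of these 0 passed in either direction, against 7.4% lower and 22.3% higher of all genes (limma, where Slc16a7 alone had an unadjusted p under 0.05, at 0.0228). With 4 genes, 0 calls do not show that the list was unchanged. Slc16a7, a monocarboxylate carrier, had a signal of 678 ± 52 in RG3487 livers and 766 ± 49 in vehicle livers (SD, n = 5 each; log2 change -0.17 ± 0.07 SE, limma adjusted p = 0.0703). It passed with quantile normalization (adjusted p = 0.0139), with arrays centred on their median (0.0155) and without RG3487 animal 4 (0.0396; range 0.0139 to 0.853), and its sign turned with hybridization control scaling (0.018). The related carrier Slc16a1, which moves ketone bodies and lactate across the cell membrane, had 1127 ± 161 and 1209 ± 185 in RG3487 and vehicle livers, and the interval of its change was -0.34 to 0.15.

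The cytosolic enzymes of these families were dim. Acat2, the cytosolic thiolase of sterol synthesis, had a signal of 80 ± 19 in RG3487 livers and 68 ± 13 in vehicle livers (SD, n = 5 each; interval of the log2 change -0.14 to 0.50). Bdh2, a cytosolic dehydrogenase, had 42 ± 12 and 44 ± 10 in RG3487 and vehicle livers (interval -0.41 to 0.28). Oxct1, the transferase by which organs other than liver activate acetoacetate, was below the filter at 16 to 31 in RG3487 livers and 22 to 40 in vehicle livers. Slc16a6, known in zebrafish as a liver exporter of beta-hydroxybutyrate, was below it too, at 31 to 51 in RG3487 livers and 30 to 55 in vehicle livers.

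**Figure D3:**
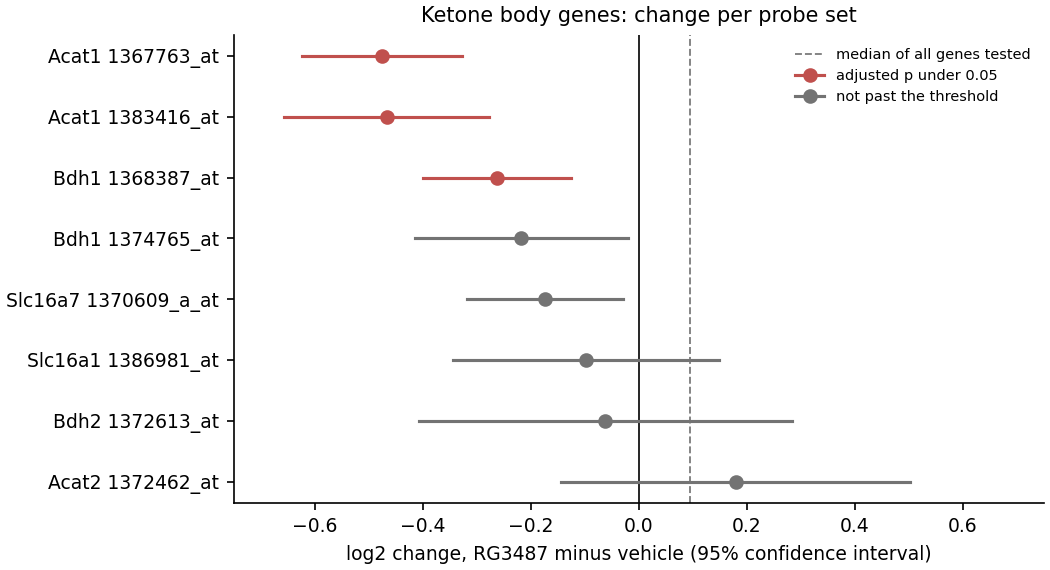
Log2 change, RG3487 minus vehicle, with its 95% confidence interval, for each Acat1 and Bdh1 probe set and the 4 other ketone body genes tested. The Acat1 intervals lie farthest below 0, and the dashed line marks the median of all genes, 0.09.

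Transcripts of mitochondrial beta-oxidation, the pathway which supplies acetyl-CoA for ketone synthesis, were lower in part. Of 18 genes 9 were called lower and 0 higher, against 7.4% lower and 22.3% higher of all genes. The median change was -0.21, against 0.09 for all genes. Most of these genes had bright probe sets. In the brightest band of probe sets above, 23% were called lower and 24.6% higher, with a median change of 0.02. The part of brightness in this count was not tested. Decr1, the dienoyl-CoA reductase used for unsaturated fatty acids, had signals of 3139 to 3754 in RG3487 livers and 4693 to 5355 in vehicle livers (log2 change -0.55 ± 0.06 SE, limma adjusted p = 9.92e-05). Hadha, the large subunit of the trifunctional protein, had 1189 to 1372 in RG3487 livers and 1714 to 2112 in vehicle livers (-0.52 ± 0.07, adjusted p = 0.000273). Hadh, the hydroxyacyl-CoA dehydrogenase of short chains, changed by -0.42 ± 0.06 and Acadm, the medium-chain acyl-CoA dehydrogenase, by -0.33 ± 0.05. With hybridization control scaling 5 genes were lower and 1 higher. Echs1, Hadhb and Acaa2 stand in this list and in another below.

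Of the thiolases beside Acat1, enzymes that cleave or form the same kind of bond, 4 were tested and 2 were called lower. Of all genes 7.4% were called lower, and in the brightest band of probe sets above 23% were. The 2 called genes, Hadhb and Scp2, both had bright probe sets. With 4 genes, 2 calls do not show that the list differed from these shares. Hadhb, the thiolase subunit of the trifunctional protein, had a mean signal of 2437 ± 154 in RG3487 livers and 3214 ± 272 in vehicle livers (SD, n = 5 each; log2 change -0.40 ± 0.07 SE, limma adjusted p = 0.00137). Scp2, a peroxisomal thiolase and sterol carrier, changed by -0.15 ± 0.05 (adjusted p = 0.0396) and by -0.31 ± 0.07 on a second probe set (adjusted p = 0.00611). On the first of these its sign turned with quantile normalization (0.018) and hybridization control scaling (0.041), where it did not pass, and that call was also lost without any of RG3487 animals 1, 4 or 5 or vehicle animals 2, 4 or 5 (adjusted p = 0.0699 to 0.0885), with no filter on dim probe sets (0.0503) and with eBayes without trend (0.0937). Acaa2, the mitochondrial thiolase of longer chains, gave -0.23 ± 0.12 on its brighter probe set and 0.38 ± 0.17 on the other, and neither passed (adjusted p = 0.195 and 0.106).

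The breakdown of branched-chain amino acids, which Acat1 closes for isoleucine, held the largest decreases of these lists. Of 21 genes tested 9 were called lower and 0 higher, against 7.4% lower and 22.3% higher of all genes. The median was -0.17, against 0.09 for all genes. With hybridization control scaling 4 were called higher, and without vehicle animal 3 there were 2 higher. Lower calls numbered 6 to 12 over the alternatives with all animals and 7 to 10 with an animal left out. Pccb, a subunit of propionyl-CoA carboxylase, which takes up the propionyl-CoA that the Acat1 cleavage leaves, had signals of 516 to 635 in RG3487 livers and 1028 to 1113 in vehicle livers (log2 change -0.91 ± 0.06 SE, limma adjusted p = 4.89e-06). Mmut, the mutase further along that route, had 624 to 775 in RG3487 livers and 1150 to 1297 in vehicle livers (-0.84 ± 0.07, adjusted p = 1.24e-05), and its other 2 probe sets changed by -0.74 and -0.76. Pcca, the partner subunit of Pccb, changed by -0.72 ± 0.10, and Aldh6a1, a dehydrogenase of valine breakdown, by -0.41 ± 0.05.

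Isoleucine steps ahead of Acat1 are given for their place in the pathway and were chosen after their values were seen. Acadsb, the branched short-chain acyl-CoA dehydrogenase, had 218 to 320 in RG3487 livers and 344 to 496 in vehicle livers (log2 change -0.63 ± 0.11 SE, limma adjusted p = 0.00191). Echs1, the hydratase shared with beta-oxidation, changed by -0.42 ± 0.14 (adjusted p = 0.0349). Hsd17b10, the dehydrogenase just before Acat1, had 2853 ± 325 and 3173 ± 144 in RG3487 and vehicle livers (SD, n = 5 each) and did not pass (limma adjusted p = 0.113). The genes of the ketoacid dehydrogenase complex, earlier on the route, did not pass either. Bckdha, Dbt and Dld had log2 changes of 0.15, 0.09 and 0.09 (limma adjusted p = 0.139, 0.393 and 0.325). Bckdhb had a change of -0.17 (adjusted p = 0.472).

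**Figure D4:**
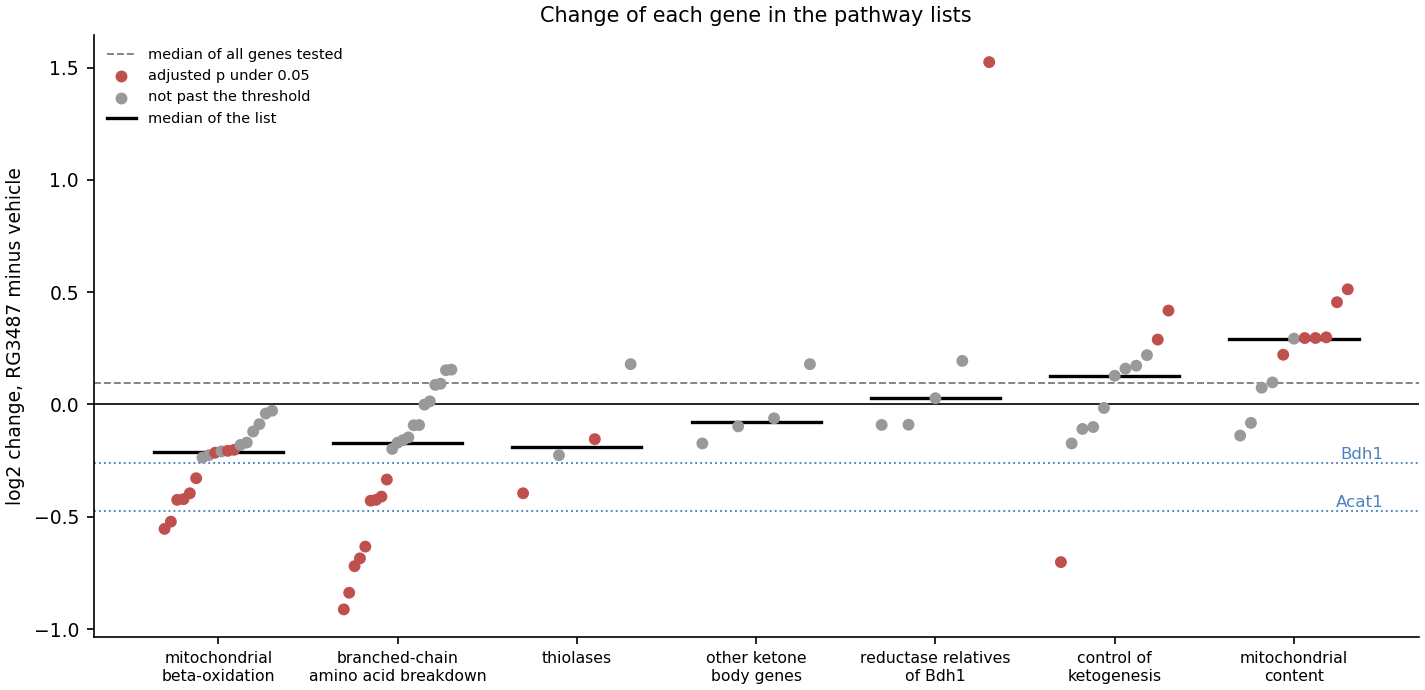
Log2 change, RG3487 minus vehicle, of each tested gene in the 7 pathway lists, 1 point per gene, red where the adjusted p is under 0.05. Black bars give list medians, the dashed line the median of all genes and dotted lines the brighter Acat1 and Bdh1 probe sets; beta-oxidation genes lie below 0 throughout, and most mitochondrial content genes lie above it.

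Some other mitochondrial genes were higher. Of 11 genes taken as measures of mitochondrial content, 6 were called higher and 0 lower, against 22.3% higher of all genes, with a median of 0.29, against 0.09 for all genes. Most of the 11 had bright probe sets. In the brightest band of probe sets above 24.6% were called higher, and in the next band 33.1% were. The other 5 did not pass on the probe set that stood for the gene. Of these Cox4i1 and Atp5f1b, chosen after their values were seen as the 2 of the 11 with changes below 0, had changes of -0.14 and -0.082. Phb2, an inner membrane scaffold protein, had signals of 1206 to 1469 in RG3487 livers and 875 to 1098 in vehicle livers (log2 change 0.46 ± 0.07 SE, limma adjusted p = 0.00105). The outer membrane channel genes Vdac1 and Vdac2 rose by 0.30 ± 0.06 and 0.30 ± 0.07, and the chaperonin gene Hspd1 rose by 0.30 ± 0.07.

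Among genes that control ketogenesis, 2 of 11 were higher (18.2%) and 1 lower (9.09%), shares near the 22.3% and 7.4% of all genes. Sirt5, a mitochondrial deacylase, had signals of 199 to 252 in RG3487 livers and 148 to 186 in vehicle livers (log2 change 0.42 ± 0.08 SE, limma adjusted p = 0.00348). Hnf4a, a hepatocyte transcription factor, rose by 0.29 ± 0.06 (adjusted p = 0.00653). Fgf21, a hormone gene of fasting, had 59 to 137 in RG3487 livers and 111 to 196 in vehicle livers, ranges that overlapped through RG3487 animal 5 (log2 change -0.70 ± 0.20, adjusted p = 0.0192). Insr, the insulin receptor gene, had a change of 0.22 ± 0.10 (adjusted p = 0.108) and passed only with hybridization control scaling (0.00419; range over the alternatives 0.00419 to 0.419). Ppara, the nuclear receptor that drives fasting ketogenesis, and its coactivator Ppargc1a were below the filter, Ppara at 2 to 43 in RG3487 livers and 18 to 50 in vehicle livers, and Ppargc1a at 9 to 25 in RG3487 livers and 17 to 50 in vehicle livers.

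Of the short-chain reductase relatives of Bdh1, 1 of 5 tested was higher, or 20%, a share near the 22.3% of all genes. Hsd17b2, which oxidises sex steroids, had signals of 2327 to 4657 in RG3487 livers and 831 to 1443 in vehicle livers (log2 change 1.52 ± 0.21 SE, limma adjusted p = 0.000442). Rdh7 changed by -0.09 ± 0.05, Rdh5 by 0.19 ± 0.13 and Hsd17b6 by -0.09 ± 0.22, and none of these passed (adjusted p = 0.164, 0.271 and 0.788).

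Markers of liver cell types were measured beside these results. Of all genes tested, 7.4% were lower and 22.3% higher. All 9 hepatocyte markers tested had changes below 0 and 4 were called lower, with a median of -0.14 and summed signals of 50153 to 60030 in RG3487 livers and 59604 to 63886 in vehicle livers. All 9 had bright probe sets, and in the brightest band of probe sets above 23% were called lower. How far brightness enters this count was not tested. Alb, the albumin gene, averaged 6895 ± 728 in RG3487 livers and 6959 ± 434 in vehicle livers (SD, n = 5 each), so the tissue label was borne out in both groups. All 8 Kupffer cell markers tested also had changes below 0 (median -0.21) and 2 were called lower (sums 2391 to 3042 in RG3487 livers and 2864 to 3446 in vehicle livers). All 5 endothelial markers tested had changes below 0 too (median -0.13) and 1 was called lower (sums 1949 to 2277 and 2300 to 2569). Of 5 stellate cell markers tested, 1 was called higher and 2 had changes below 0, with a median of 0.13 (sums 1537 to 1707 in RG3487 livers and 1353 to 1787 in vehicle livers). None passed among 1 cholangiocyte, 2 leukocyte and 2 erythroid markers tested, whose sums were 154 to 294, 576 to 1170 and 2616 to 3483 in RG3487 livers and 122 to 204, 821 to 1058 and 2775 to 4105 in vehicle livers. The leukocyte and erythroid markers tested had changes below 0, and the cholangiocyte marker had a change of 0.27. No marker with a probe set was at 0 on all arrays. The part of cell makeup in the Acat1 and Bdh1 values was not tested.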

How the data were processed

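RNA from 10 rat livers was measured on 1 Affymetrix array each, 5 per group, labelled from 1 ug of RNA. The authors deposited a linear signal intensity per probe set, made with MAS5 per the submitters' processing notes. Those notes state neither its version nor a scaling target. Column means of 330 to 331.8 show scaling to a common mean. The number of arrays limits the precision.

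From these signals, log2(signal + 16) was computed, and 40 controls and the dimmest 25% of probe sets were left out. The fit used limma 3.58.1 in R 4.3.3 (lmFit, eBayes with trend), checked on simulated data. Tests are two-sided. For counts of genes, the brightest retained probe set stood for each gene. Symbols were updated through the RefSeq gene table of GRCr8, and 1 changed. The alternatives were other pseudocounts (1 and 64), scalings, filters, eBayes settings, array weights, a replicate block and each animal left out. The replicate numbers do not pair the animals: the labels give 10 different animals.

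The members, lists, tests and alternatives were chosen with earlier results of these data known. Named genes are all Acat1 and Bdh1 probe sets, all measured genes of the ketone list, up to 4 genes of smallest p in each other pathway list (2 where none passed), Ppara and Ppargc1a, and for each gene the 5 most alike and 3 most opposite genes. Alb was named as a marker of the tissue. Others are marked as chosen after their values were seen.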

Additional observations from a re-analysis of the deposited data

Results flagged for a closer look

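Values of each named gene, and the Bdh1 minus Acat1 difference, were examined in 104 groups of 5 for a single value far from the others (Dixon's ratio of gap to range), and 4 groups exceeded the 95% critical value. Chance alone gives about 1 in 20. None of the 8 groups of Acat1 and Bdh1 values did. In RG3487 animal 2, Hnf4a had a signal of 2545 against 2840 to 2950 in the other RG3487 livers (ratio 0.743). The other 3 were in vehicle animal 5. There Aldh6a1 had 4199 against 3565 to 3614 in the other vehicle livers (ratio 0.917), Hsd17b6 had 3852 against 2962 to 3190 (ratio 0.718), and Slc16a6 had 55 against 30 to 35 (ratio 0.762).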

How the results depend on the processing

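Both Acat1 probe sets kept their direction and call under all 21 alternatives run, with log2 changes of -0.55 to -0.28 and -0.57 to -0.28 (-0.53 to -0.44 and -0.52 to -0.42 with an animal left out). Bdh1 on 1368387_at lost its call under hybridization control scaling (-0.0695) and was -0.30 to -0.23 with an animal left out. On 1374765_at it gained a call with quantile normalization (-0.29) and with arrays centred on the median (-0.30), and was -0.27 to -0.16 with an animal left out. The Bdh1 minus Acat1 difference missed the threshold with a pseudocount of 64 (0.21) and with quantile normalization (0.22), and was 0.17 to 0.28 with an animal left out. With the replicate block it was 0.23 (exact sign-flip permutation p = 0.188, n = 5), a test that cannot give less than 0.0625 over 5 pairs and so could not pass. That block lost no Acat1 or Bdh1 call (adjusted p = 0.00272, 0.00943 and 0.0236), but with it, on their brighter probe sets, Scp2 lost its call (0.0922) and Acaa2 gained one (0.0221), and same-numbered animals deviated together by r of -0.04 to 0.17, over 0.1 in 1 of 5 pairs. Calls numbered 2443 higher and 852 lower (74.1% higher), with 1418 higher under quantile normalization (54.3%), 1359 and 1335 with centred arrays (50.4%) and 6158 and 378 with hybridization control scaling (94.2%). An animal left out gave 1803 to 2560 higher and 688 to 889 lower.

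Under hybridization control scaling, beta-oxidation had 5 lower and 1 higher, branched-chain breakdown 4 higher, the control list 6 higher, the Bdh1 relatives 3 higher and the thiolases 1 lower. The thiolases also had 1 lower with quantile normalization, no filter and eBayes without trend. The ketone list had 1 lower with quantile normalization or centred arrays, and the control list 2 lower with centred arrays or no filter. With an animal left out, lower calls were 0 to 1 in the ketone list, 1 to 2 among thiolases and 0 to 1 for mitochondrial content, and higher calls in branched-chain breakdown were 0 to 2. Lower calls in branched-chain breakdown were 6 to 12 over the alternatives with all animals. Scp2 changed sign with quantile normalization (0.0175) and hybridization control scaling (0.0406). The cause of these shifts was not tested. Of 895 other values of 43 named probe sets, 865 stayed on their side of the threshold.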
